A study of Mus musculus with 4 samples.

Results

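The genes described here encode the subunits of respiratory complexes II to V, the machinery that passes electrons to oxygen and makes ATP in mitochondria. They were chosen by symbol, as the Sdh genes of complex II, the Uqcr genes, Cyc1 and mt-Cytb of complex III, the Cox4 to Cox8 and mt-Co genes of complex IV, and the Atp5 and mt-Atp genes of complex V. The pattern matched 56 of the 22322 genes in the files, 50 of them nuclear-encoded and 6 encoded by mitochondrial DNA. RNA was sequenced from cardiomyocytes of male mice that had undergone a sham operation (2 libraries) or transverse aortic constriction (TAC, 2 libraries), surgery that narrows the aorta and loads the left ventricle with pressure. No transgene, deletion or drug is named for either group, and no strain is given in the labels. Per the methods of the study, surgery was done at 2 months of age, cells were released from the heart by Langendorff perfusion, and each preparation held part of the cells of 1 mouse heart. The cells were taken at 14 weeks, and the sources are not clear on whether this is the time after surgery or the age of the mice. With 2 hearts a group, the p-values measure the spread between these preparations only. In bulk RNA, fewer cells of a type and less RNA per cell cannot be told apart.

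Complex II (succinate dehydrogenase) links the tricarboxylic acid cycle to the respiratory chain, complex III passes electrons from ubiquinol to cytochrome c, complex IV (cytochrome c oxidase) hands them to oxygen, and complex V (ATP synthase) uses the proton gradient to make ATP. All subunits of complex II are nuclear-encoded, whereas complexes III, IV and V each combine many nuclear-encoded subunits with a few made from mitochondrial DNA. The heart depends on these complexes for most of its ATP, and several complex IV subunits have a form that is specific to heart and skeletal muscle beside a form found in most tissues. The comparison of TAC with sham asks whether the nuclear and mitochondrial parts of each complex differed in RNA level in pressure-loaded cardiomyocytes.

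Nuclear genes for respiratory subunits are known to be driven by NRF1, by ETS-family factors such as GABPA (NRF2), and by estrogen-related receptors (ERR). Promoter windows from RefSeq (GRCm38.p6; 250 bases before to 50 bases after the gene start) were found for 35 of the 46 nuclear-encoded subunits that entered the test. The 10-base palindrome bound by NRF1, whose letters are the capitals in the sequences below, reads the same on both strands and lay in 4 of the 38 member windows (10.5%), against 1.33% of the 21263 windows of protein-coding genes. The 4 matches are printed with 10 bases on each side, 5′ to 3′ on the strand of the gene, because these promoters hold a full NRF1 palindrome.
Atp5g2 (chr15:102671070-102671099, minus strand): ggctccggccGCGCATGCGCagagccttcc
Atp5k (chr5:108434430-108434459, minus strand): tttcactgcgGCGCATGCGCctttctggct
Cox6a1 (chr5:115349101-115349130, minus strand): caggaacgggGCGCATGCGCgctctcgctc
Uqcrc1 (chr9:108936668-108936697, plus strand): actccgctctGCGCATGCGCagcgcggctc

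The match lay before the gene start in Atp5g2, Atp5k and Cox6a1, and after it in Uqcrc1. The ERR element TCAAGGTCA, searched on both strands, was found in 2 member windows (5.26%) and in 0.334% of all windows. Both matches are on the other strand, so the capitals show its reverse complement.
Atp5g3 (chr2:73911360-73911388, minus strand): tgttacaaagTGACCTTGAgcgtcttccc
Sdhd (chr9:50603800-50603823, minus strand): ggttgtagagTGACCTTGAgccct

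The ETS core CCGGAAG, on either strand, was present in 13 of the 38 member windows (34.2%) and in 11.6% of all windows. No match to one of these motifs overlapped a match to another in the member windows. In TAC against sham, the log2 differences of the 4 genes with the NRF1 palindrome were 0.24 (Atp5g2), 0.25 (Atp5k), 0.16 (Cox6a1) and 0.15 (Uqcrc1), and those of Atp5g3 and Sdhd with the ERR element were 0.11 and 0.19. The median over all 46 nuclear-encoded subunits tested was 0.16, so these genes lay on both sides of it. A match to letters is a description and does not show that a factor binds there.

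The libraries held 28844755 (Sham 1), 27678165 (Sham 2), 32118323 (TAC 1) and 24237777 (TAC 2) expected counts. Of the 56 subunit genes, 52 passed the low-count filter, 46 nuclear-encoded and all 6 mitochondrially encoded. Cox5b-ps, Cox8c and one of the 2 entries for Atp5o had a count of 0 in every library, which allows up to 0.0948 to 0.123 CPM (counts scaled to a common library size) by the limit of 3 counts per library. Cox7b2, a testis form of a complex IV subunit, had counts of 2, 0, 0 and 1. The cardiomyocyte label was checked against 8 marker genes, all of which were detected, with a summed level of 47810 to 55052 CPM in sham and 48798.5 to 50665 CPM in TAC. Myh6 alone gave 24725 (Sham 1) and 29438 (Sham 2) CPM of the sham sums. Both TAC libraries lay above both sham libraries for 2 markers (Actn2 and Myl2) and below for 2 (Myh6 and Ryr2), against 29.8% and 30.3% of all genes. EdgeR called 0 of them. Detection does not measure how pure the cells were.

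No subunit of complexes II to V passed the test for a difference between TAC and sham (0 of 52, edgeR quasi-likelihood test, Benjamini-Hochberg adjusted p under 0.05), where 5.01% of all 12499 genes tested did (2.58% higher and 2.43% lower in TAC). DESeq2 called 2 (Cox6a2 and mt-Co1, both higher in TAC) where it called 7.4% of all genes, and limma-voom called 1 (Cox6a2) where it called 5.54%. At an unadjusted p under 0.05, 11 of the 46 nuclear-encoded subunits (23.9%) and 0 of the 6 mitochondrially encoded ones passed, against 27.5% of all genes. Of the 5439 genes tested with a mean FPKM of at least 5, edgeR called 398, and 34.1% passed unadjusted. Among the 44 nuclear-encoded subunits of that abundance it called 0, and 22.7% passed unadjusted. Scaled by total counts 0 of 52 passed, where 0.84% of all genes were called higher and 3.38% lower, and with TMM factors made without mitochondrial genes 0 of 52 passed, where 2.54% were called higher and 2.4% lower. On simulated counts the test recovered 82.5% of genes changed by 1 on the log2 scale, and the differences of all subunits but Cox6b2 were smaller than 1.

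Among the nuclear-encoded subunits the fitted differences were small and nearly all on one side. With counts scaled by TMM (a scaling in which most genes are taken to be equal), 43 of 46 had a log2 difference above 0, against 49.1% of all genes, with a median of 0.16 and a median standard error of 0.083. Abundant genes in general lay on the same side. Among the 5439 genes tested with a mean FPKM of at least 5, 70.2% lay above 0 with a median of 0.11, beside 43 of the 44 nuclear-encoded subunits of that abundance with a median of 0.16. Both TAC libraries lay above both sham libraries for 31 of the 46 (67.4%), against 29.8% of all genes and 49.0% of those with a mean FPKM of at least 5, and both lay below for 2 (Cox4i2 and Cox6b2), against 30.3%. The other 13 overlapped. Sham 1 was the lowest library in CPM for 39 of the 46, and TAC 1 the highest for 28. Among the 5439 genes with a mean FPKM of at least 5 these numbers were 2349 and 2516, counted where every library had a count. The direction of the fitted differences depended on the scaling, since by total counts the median was −0.03 and 14 of 46 lay above 0.

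**Figure D1:**
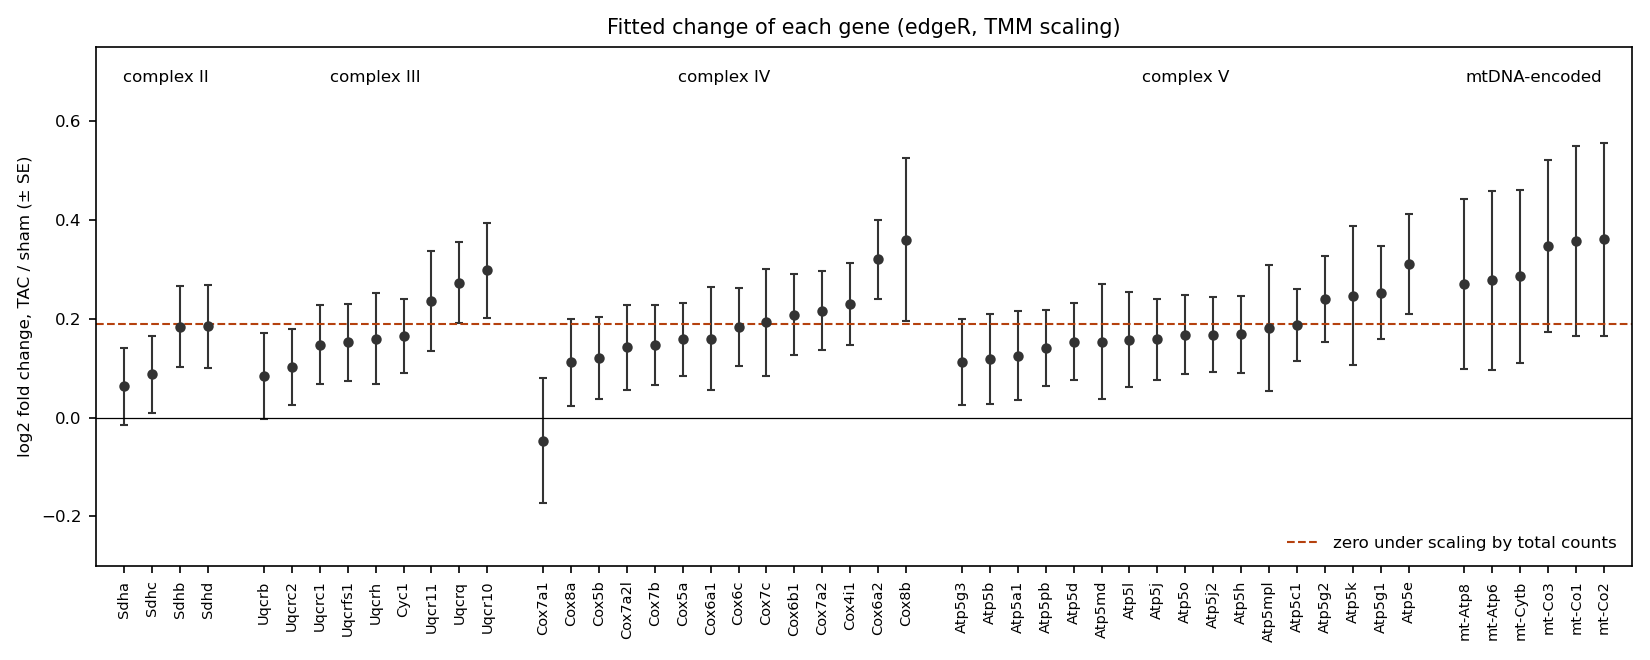
Fitted log2 difference of TAC against sham (y axis, edgeR with TMM scaling, points with bars of 1 standard error) for the 44 nuclear-encoded subunits with a mean FPKM of at least 5, by complex, and the 6 encoded by mitochondrial DNA (mtDNA). All points but Cox7a1 lie above 0, and the dashed line, the level that would be 0 under scaling by total counts, lies above most nuclear-encoded points and below the mtDNA-encoded ones.

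The 4 subunits of complex II gave a median difference of 0.14, and 0 of 4 reached an unadjusted p under 0.05. Sdha, the flavoprotein that oxidises succinate, measured 1101 and 1090 CPM in the sham libraries and 1168 and 1121 CPM in the TAC libraries. Its difference was 0.06 ± 0.08 (log2, SE; adjusted p = 0.631, edgeR), within its error. Sdhb, the iron-sulfur subunit, measured 435 and 444 CPM in sham and 525 and 473 CPM in TAC (0.18 ± 0.08, adjusted p = 0.195, edgeR). For both genes the TAC libraries lay above the sham libraries, TAC 1 higher than TAC 2. The membrane anchors Sdhc and Sdhd differed by 0.09 and 0.19. Sdhd did not overlap between groups (289 and 300.02 against 355 and 315 CPM), whereas Sdhc in TAC 2 (262.1 CPM) was level with Sham 2 (262.3 CPM).

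In complex III, all 9 nuclear-encoded subunits had a difference above 0 (median 0.16), and 7 of 9 had both TAC libraries above both sham libraries, as did 29.8% of all genes and 49.0% of those with a mean FPKM of at least 5. The largest differences were those of Uqcr10, Uqcrq and Uqcr11 (0.24), and the smallest was that of Uqcrb (0.08), all of them small accessory subunits. Uqcrq, which lies beside cytochrome b, measured 179 and 201 CPM in sham and 231 and 228 CPM in TAC, a difference of 0.27 ± 0.08 (adjusted p = 0.0914, edgeR). Uqcr10 measured 76.6 and 91.4 CPM in sham against 103 and 104 CPM in TAC (0.30 ± 0.10, adjusted p = 0.103, edgeR). In both genes the 2 sham hearts differed more from each other than the 2 TAC hearts did, and the groups stayed apart.

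The differences of the catalytic and core subunits lay between these. Cyc1, the cytochrome c1 that hands electrons to cytochrome c, measured 415 and 413 CPM in sham and 479 and 450 CPM in TAC (0.17 ± 0.07, adjusted p = 0.198, edgeR). Uqcrfs1, the Rieske iron-sulfur protein, had 538 and 554 CPM in sham and 628 and 585 CPM in TAC (0.15 ± 0.08). The groups did not overlap in either gene, and the highest library was TAC 1 in both. The core protein Uqcrc1 had 857 and 858 CPM in sham and 982 and 918 CPM in TAC (0.15 ± 0.08), and its partner Uqcrc2 had 658 and 689 against 738 and 708 CPM (0.10 ± 0.08). Neither core protein overlapped between groups. Uqcrb and Uqcrh (0.16) overlapped between groups, each with TAC 2 below Sham 2.

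Complex IV was the only complex with nuclear-encoded subunits below 0 (3 of 16), and it held both the lowest adjusted p and the widest range, −1.62 to 0.36. The lowest adjusted p belonged to Cox6a2, the form of subunit VIa found in heart and skeletal muscle (chr7:128205435-128206387, minus strand, mm10). It measured 848 and 904 CPM in sham and 1098 and 1089 CPM in TAC, or 876 ± 39.6 against 1094 ± 5.98 CPM (SD, n = 2 each). In CPM the TAC libraries lay within 1% of each other and above both sham libraries, and the difference was 0.32 ± 0.08 (adjusted p = 0.0619, edgeR). It was also the only nuclear-encoded subunit whose TAC libraries lay above the sham libraries in the deposited FPKM, where 8.49% of all genes did so. On that scale the TAC libraries were less close, with 1402 (TAC 1) and 1616 (TAC 2) FPKM. Sham 1 had 1368 and Sham 2 had 1382 FPKM, so TAC 1 lay only slightly above them. Scaled by total counts its difference was 0.13, and adjusted p over all settings ran from 0.00554 to 0.605.

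Cox4i1, the common form of subunit IV, measured 670 and 669 CPM in sham and 747 and 823 CPM in TAC (0.23 ± 0.08, adjusted p = 0.129, edgeR). The sham libraries were nearly equal and TAC 2 was the highest. Cox6b1, the common form of subunit VIb, had 196 and 221 CPM in sham and 242 and 240 CPM in TAC (0.21 ± 0.08, adjusted p = 0.157, edgeR). Cox7a2, the common form of subunit VIIa, had 104 and 98.1 CPM in sham and 112 and 123 CPM in TAC (0.22 ± 0.08, adjusted p = 0.137, edgeR). These 3 common forms did not overlap between groups. Cox5a, Cox6c, Cox7a2l, Cox7b and Cox7c also had both TAC libraries above both sham libraries, with differences of 0.14 to 0.19. Cox7a2l is counted with complex IV by its symbol and is classed as a factor of supercomplexes, in which complexes are joined. For Cox7a2l and Cox7c the lower TAC library exceeded the higher sham library by less than 1 CPM.

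Cox8b and Cox7a1, forms of subunits VIII and VIIa that are found in muscle, differed between the sham hearts by 0.48 and 0.39 on the log2 scale, the largest such values among the nuclear-encoded complex IV genes with a mean FPKM of at least 5. Cox8b measured 39.6 and 55.2 CPM in sham and 54.2 and 67.4 CPM in TAC. Its difference of 0.36 was the largest above 0 of the nuclear-encoded subunits, but with a standard error of 0.16 (adjusted p = 0.205, edgeR), and TAC 1 lay below Sham 2. Without Sham 1 the difference was 0.14, and without Sham 2 it was 0.62 (adjusted p = 0.0218, edgeR). Cox7a1 measured 131 and 172 CPM in sham and 140 and 154 CPM in TAC, so both TAC values lay between the sham values. Its difference was −0.05 ± 0.13 (adjusted p = 0.842, edgeR). The common forms Cox6a1 (26.9 and 31.3 CPM in sham, 33.6 and 31.3 CPM in TAC) and Cox8a (47.6 and 51.6 CPM in sham, 51.1 and 56.2 CPM in TAC) overlapped between groups as well, with differences of 0.16 and 0.11.

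The 2 subunits with TAC below sham were the least abundant ones tested. Cox6b2, a form of subunit VIb best known from testis, had counts of 15 and 28 in sham and 5 and 7 in TAC, or 0.474 and 0.973 against 0.179 and 0.286 CPM. Its difference was −1.62 ± 0.60 (adjusted p = 0.137, edgeR). Cox4i2, the form of subunit IV known from lung and from oxygen sensing, had counts of 33 and 27 in sham and 16 and 19 in TAC, with a difference of −0.56 ± 0.39 (adjusted p = 0.382, edgeR). The groups did not overlap in either gene, and the depth behind them is a few reads. Their mean FPKM was 0.998 and 1.17, against a median of 316 for complex IV.

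The paired forms of complex IV subunits give a ratio within each library that no scaling changes. Per length (from FPKM), the heart and muscle form made up most of the Cox6a pair, since Cox6a1 took 3.31 to 3.96% of it. The Cox7a and Cox8 pairs were mixed, with 25.4 to 32.4% from Cox7a2 and 35.3 to 44.0% from Cox8a. Cox4i2 took 0.0792 to 0.159% of its pair and Cox6b2 0.0823 to 0.542%. As count ratios, Cox6a1 over Cox6a2 was 0.0317 and 0.0346 in sham and 0.0306 and 0.0287 in TAC, a log2 difference of −0.16 without overlap. It was −0.22 without Sham 1 and −0.095 without Sham 2. The ratios of Cox4i2 to Cox4i1 and Cox6b2 to Cox6b1 were also lower in both TAC libraries, by −0.80 and −1.79, on the few reads given above.

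Cox7a2 over Cox7a1 was 0.792 and 0.570 in sham and 0.801 and 0.798 in TAC. Sham 1 and both TAC hearts were level and Sham 2 stood apart. Its log2 difference of 0.25 was 0.01 without Sham 2. Cox8a over Cox8b was 1.20 and 0.936 in sham and 0.942 and 0.834 in TAC, with overlap. The forms differ in length, as implied by count and FPKM. Cox7a2 has 659 and Cox7a1 394 bases, and Cox8a has 550 and Cox8b 360 bases. Differences between the sham hearts were graded by length (below), and the part of length in these ratios was not tested. An exact two-sided permutation test of 2 libraries against 2 cannot give a p below 0.333. That value was reached for 4 of 12 ratios tested, and the Benjamini-Hochberg adjusted p was 1 for all of them.

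**Figure D2:**
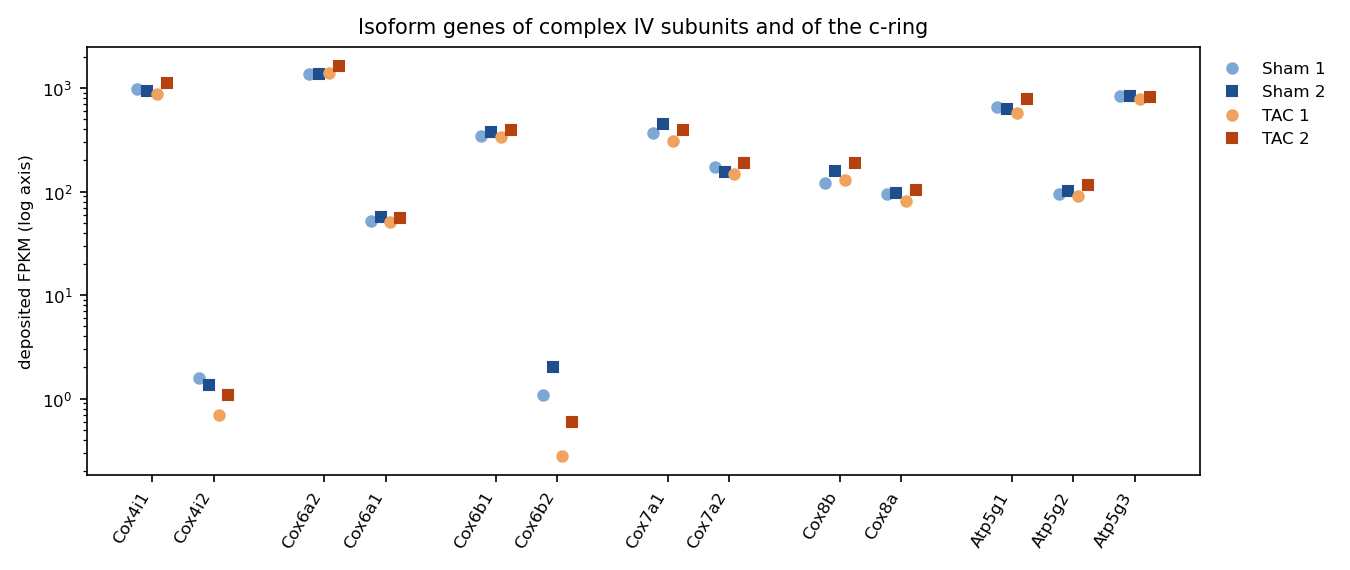
Deposited FPKM (y axis, log scale) of the paired forms of complex IV subunits and the 3 genes of the c subunit, with 1 point for each of the 4 libraries. Cox6a2 lies far above Cox6a1, Cox4i2 and Cox6b2 lie lowest with both TAC libraries under both sham libraries, and the Cox7a and Cox8 forms lie close together.

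All 17 nuclear-encoded subunits of complex V had a difference above 0, with a median of 0.17 and a narrow range of 0.11 to 0.31. Atp5a1 and Atp5b, the alpha and beta subunits that form the catalytic head, were the most abundant nuclear-encoded genes by counts. Atp5b measured 3541 and 3485 CPM in sham and 3887 and 3740 CPM in TAC (0.12 ± 0.09, adjusted p = 0.423, edgeR). Atp5a1 measured 3219 and 3234 CPM in sham and 3611 and 3430 CPM in TAC (0.13 ± 0.09, adjusted p = 0.395, edgeR). In both genes the sham libraries were close together and both TAC libraries lay above them. The gamma subunit Atp5c1, part of the central stalk, had 586 and 601 CPM in sham and 672 and 680 CPM in TAC (0.19 ± 0.07).

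Atp5e, the epsilon subunit of the central stalk, gave the largest difference of complex V. It measured 77.7 and 84.6 CPM in sham and 91.7 and 109.6 CPM in TAC (0.31 ± 0.10, adjusted p = 0.106, edgeR). The groups did not overlap, and the TAC hearts lay further apart than the sham hearts. The 3 genes Atp5g1, Atp5g2 and Atp5g3 encode the same mature c subunit of the proton-carrying ring. Atp5g1 had 375 and 388 CPM in sham and 418 and 492 CPM in TAC, and Atp5g2 had 63.8 and 70.9 CPM in sham and 75.9 and 83.2 CPM in TAC. Both gave differences near 0.25 without overlap. Atp5g3 had 548 and 582 CPM in sham and 646 and 576 CPM in TAC, so that only TAC 1 lay above the sham libraries. The ratios among the 3 genes overlapped between groups, with log2 differences of 0.01 to 0.14. Atp5g1 over Atp5g3 differed by 0.34 without TAC 1 and −0.06 without TAC 2. For Atp5g2 over Atp5g3 these values were 0.28 and −0.02.

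Atp5k, Atp5md and Atp5mpl, small subunits of the membrane part, differed most between the sham hearts among complex V genes of the nucleus, by 0.35 to 0.44 on the log2 scale. Atp5k had 29.2 and 39.7 CPM in sham and 39.7 and 42.1 CPM in TAC, where TAC 1 was level with Sham 2. Atp5md and Atp5mpl overlapped in the same way, with 65.8 and 59.2 CPM in Sham 1, the lowest library, and 74.6 to 84.6 CPM in the other 3. In the fit without Sham 2, where the lone sham library is assumed to vary like the TAC libraries, Atp5k, Cox8b and Uqcr10 passed (3 of 52), and 5.8% of all genes did.

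**Figure D3:**
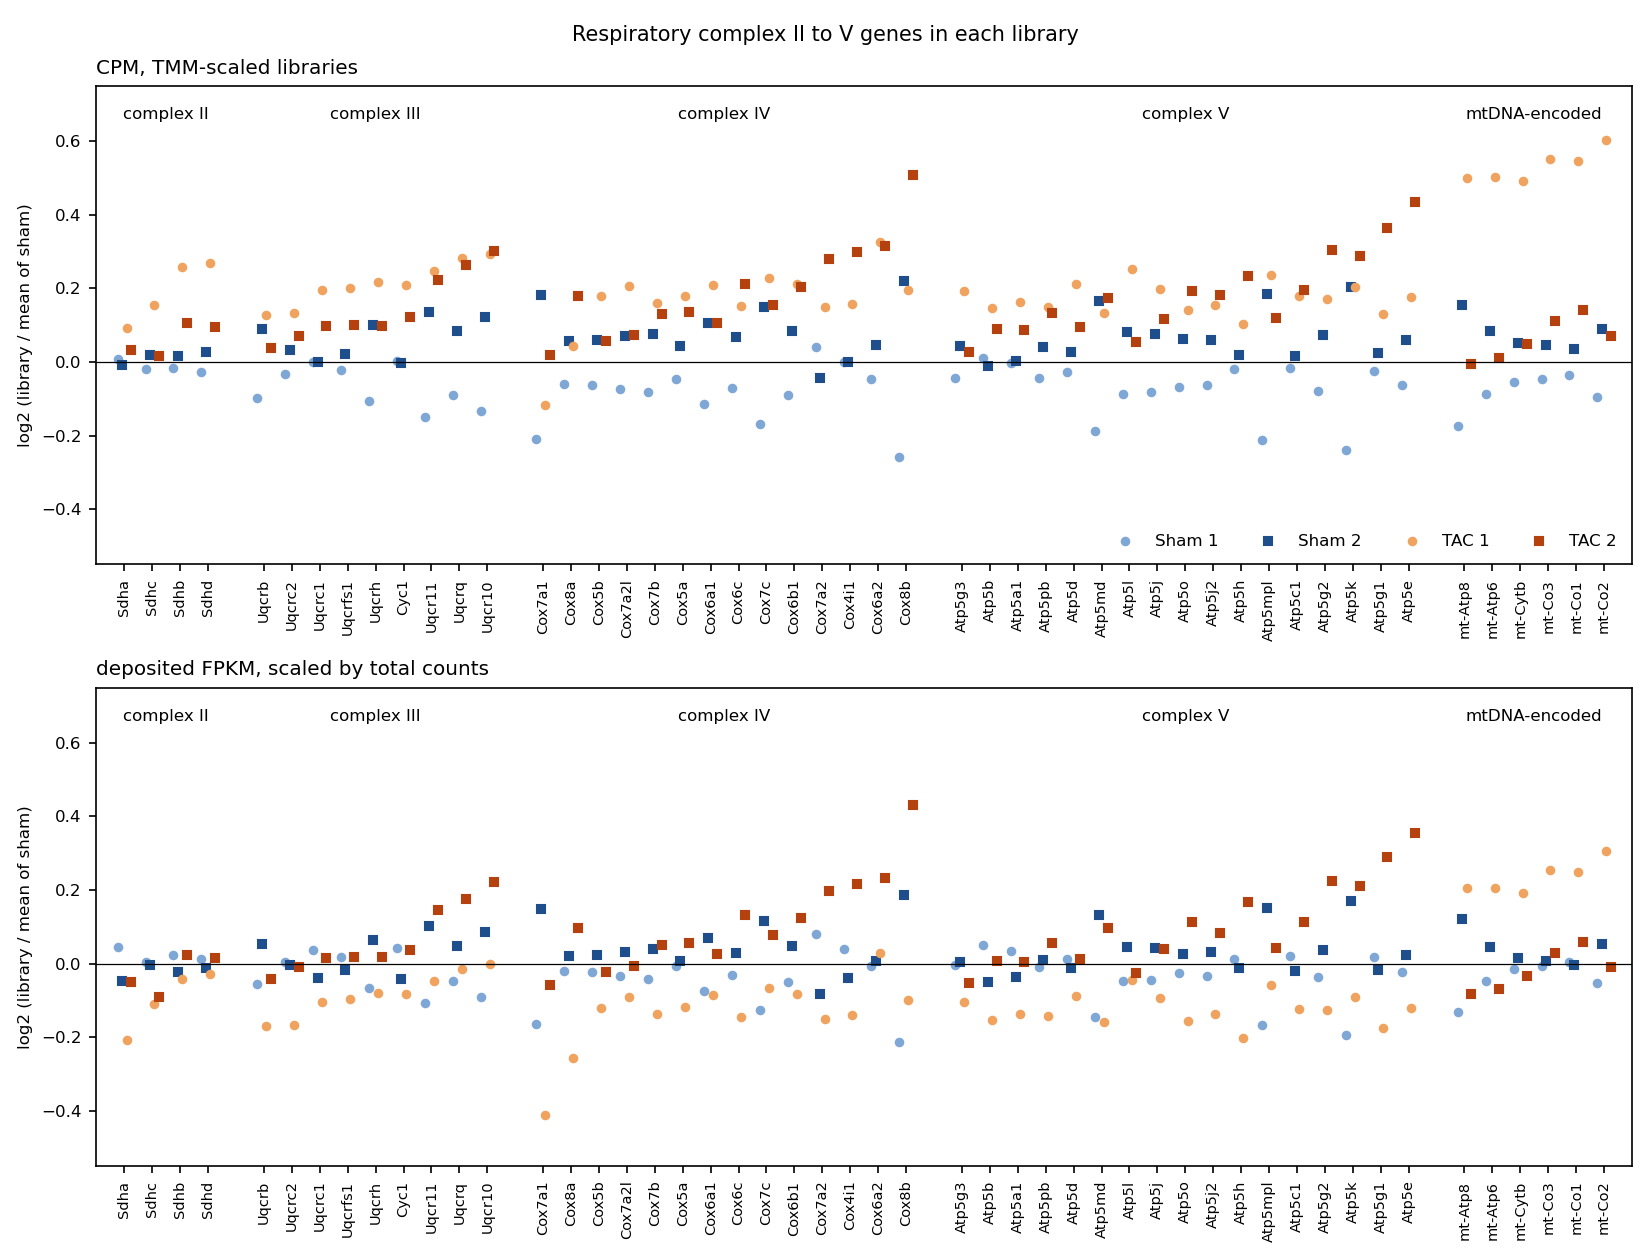
Log2 ratio of each library to the mean of the sham libraries (y axis) for the same 50 genes, with TMM-scaled CPM in the upper panel and deposited FPKM, which is scaled by total counts, in the lower panel. TAC 1 lies high for the nuclear-encoded genes in the upper panel and is the lowest library for most of them in the lower one, while it is the highest for all 6 mtDNA-encoded genes in both.

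The subunits encoded by mitochondrial DNA were the most abundant RNAs of these complexes. Their mean FPKM ran in the order mt-Co1 (89899), mt-Co2 (61949), mt-Co3 (49394), mt-Atp6 (38261), mt-Cytb (35751) and mt-Atp8 (3453), while the highest nuclear-encoded subunit, Atp5b, had 1912. mt-Atp8 (chrM:7766-7969) spans 204 bases and shares 43 of them with mt-Atp6, so that reads in the overlap are not clearly of one gene. The 6 genes together took 27.14% (95% Wilson interval 27.12 to 27.15) of all counts in Sham 1 and 27.66% (27.65 to 27.68) in Sham 2. Their share was 32.48% in TAC 1 (interval 32.46 to 32.49) and 27.78% in TAC 2 (interval 27.77 to 27.80). The intervals cover counting error only. TAC 2 was level with the sham libraries and TAC 1 stood apart.

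mt-Co1 (chrM:5328-6872), the catalytic subunit of complex IV, measured 120056 and 126038 CPM in sham and 179691 and 135651 CPM in TAC (0.36 ± 0.19, adjusted p = 0.268, edgeR). mt-Co2 (chrM:7013-7696), which takes electrons from cytochrome c, measured 35190 and 39973 CPM in sham and 57052 and 39455 CPM in TAC (0.36 ± 0.20, adjusted p = 0.273, edgeR). mt-Co3 (chrM:8607-9390) had 33341 and 35570 CPM in sham and 50489 and 37188 CPM in TAC (0.35 ± 0.17, adjusted p = 0.240, edgeR). In mt-Co1 and mt-Co3 both TAC libraries lay above sham, and in mt-Co2 TAC 2 lay between the sham libraries.

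mt-Cytb (chrM:14145-15288), the cytochrome b of complex III, had 35820 and 38588 CPM in sham and 52278.5 and 38461.5 CPM in TAC (0.29 ± 0.18, adjusted p = 0.326, edgeR). mt-Atp6 (chrM:7927-8607), the proton channel subunit of complex V, had 22389 and 25205 CPM in sham and 33696 and 23995.5 CPM in TAC (0.28 ± 0.18). mt-Atp8 had 573 and 719 CPM in sham and 914 and 643 CPM in TAC (0.27 ± 0.17). In all 3 genes TAC 2 lay between the sham libraries. Against the sham mean, TAC 1 was higher by 0.49 to 0.60 and TAC 2 by −0.01 to 0.14 on the log2 scale over the 6 genes.

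The size of the difference rested on TAC 1, although TAC 2 also lay above both sham libraries in mt-Co1 and mt-Co3. Without TAC 1 the median of the 6 genes was 0.06, and without TAC 2 it was 0.53. In the fit without TAC 2, where the lone TAC library is assumed to vary like the sham libraries, all 6 passed, with adjusted p from 0.0267 (mt-Co2) to 0.0454 (mt-Atp8), and 10.3% of all genes tested in that fit passed. With all 4 libraries 0 of 6 passed in edgeR, where the lowest adjusted p was 0.240 (mt-Co3), and 1 of 6 passed in DESeq2 (mt-Co1, adjusted p = 0.0351).

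The balance between the 2 genomes followed the same library. Mitochondrially encoded counts were 14.2 and 14.7 times the nuclear-encoded counts of complexes III to V in sham, and 18.6 and 14.0 times in TAC. Within complex III the ratio was 11.4 and 11.7 in sham and 14.2 and 11.04 in TAC, within complex IV 55.8 and 55.01 against 70.9 and 51.8, and within complex V 2.10 and 2.32 against 2.80 and 2.05. In each complex the highest ratio was TAC 1 and the lowest was TAC 2, with both sham hearts between them. The log2 difference of TAC and sham means was 0.17 for complexes III to V together (exact two-sided permutation p = 1). It was −0.04 without TAC 1 and 0.37 without TAC 2.

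**Figure D4:**
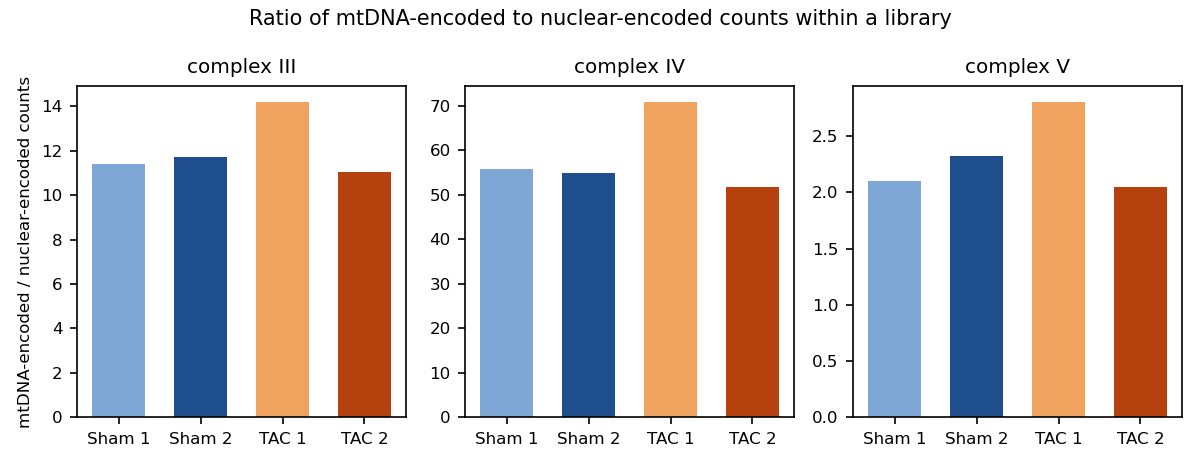
Bars give the ratio of mitochondrially encoded to nuclear-encoded subunit counts in each library (y axis, starting at 0, with its own scale in each panel) for complexes III, IV and V. TAC 1 is the highest and TAC 2 the lowest library in each complex.

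Counts from the 13 mitochondrial protein genes took 47.4% of TAC 1 and 39.8 to 40.8% of the other libraries. As a share of all counts, the nuclear-encoded subunits made up 2.143% in Sham 1 (95% Wilson interval 2.137 to 2.148) and 2.104% in Sham 2 (interval 2.099 to 2.109). They made up 1.946% in TAC 1 (interval 1.941 to 1.951) and 2.197% in TAC 2 (interval 2.191 to 2.203). On this scale TAC 1 was the lowest library and TAC 2 the highest. By gene, TAC 1 had the lowest FPKM for 37 of the 46. Among the 5439 genes with a mean FPKM of at least 5 it was the lowest for 3641, counted where every library had a count. In the deposited FPKM, which is scaled by the library total, both TAC libraries were above both sham libraries for 1 of 46 nuclear-encoded subunits and below for 6 (Sdha, Sdhc, Uqcrc2, Cox4i2, Cox6b2 and Atp5g3), where 8.49% and 45.6% of all genes were. Among genes with a mean FPKM of at least 5 these shares were 11.7% and 36.7%. Scaled by total counts, the median of all genes was −0.20, so the nuclear-encoded median of −0.03 still lay above it. With totals taken without mitochondrial genes the nuclear-encoded median was 0.06, with 40 of 46 above 0 and a median of all genes of −0.11. With TMM factors made without mitochondrial genes it was 0.16, as with all genes. A scaling shifts all genes alike, so the nuclear-encoded median changed sign with it while its place above the median gene did not change. Abundant genes in general also lay above the median gene. With TMM, genes with a mean FPKM of at least 5 had a median of 0.11. The 44 nuclear-encoded subunits of that abundance had 0.16, with a median standard error of 0.083.

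Differences between the 2 sham hearts were graded by transcript length. Among the 44 nuclear-encoded subunits with a mean FPKM of at least 5, the 22 shorter ones (360 to 680 bases, as implied by count and FPKM) had a median log2 difference of Sham 2 over Sham 1 of 0.18. The 22 longer ones (716 to 2900 bases) had 0.06. Spearman's rho of length with that difference was −0.79 over these 44 genes, which share their libraries, and is given as a description. Over all genes tested at that level the same split gave 0.12 for 197 shorter and 0.03 for 5242 longer genes, so the grade was not limited to respiratory subunits. For TAC against sham the split gave 0.19 for shorter and 0.15 for longer subunits, and 0.22 and 0.10 for shorter and longer genes in general. The values for genes in general include the subunits, and the differences between them were not tested. Between the 2 TAC hearts the grade was weaker, with a rho of length with TAC 2 over TAC 1 of −0.39 and medians of 0.0003 for the shorter and −0.078 for the longer subunits. The log2 difference of TAC against sham had a rho with length of −0.44. The 3 largest differences, of Cox8b, Cox6a2 and Atp5e, belonged to transcripts of 360, 680 and 421 bases. The part of length in the TAC difference was not tested.

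**Figure D5:**
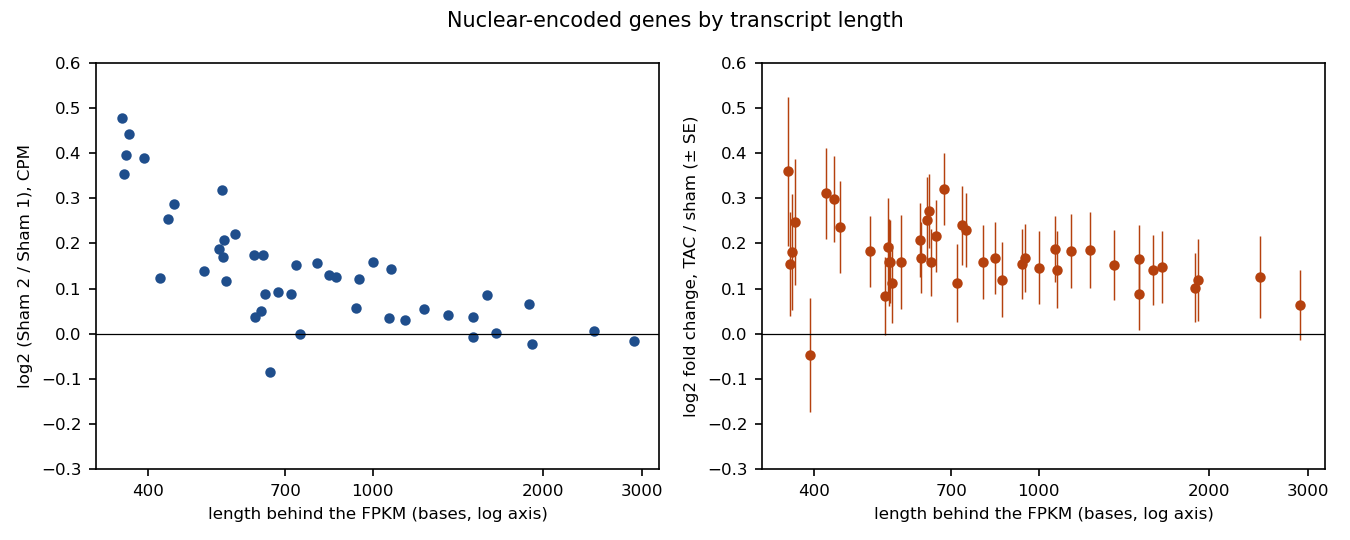
Transcript length implied by count and FPKM (x axis, bases, log scale) for the 44 nuclear-encoded subunits with a mean FPKM of at least 5, against the log2 difference of Sham 2 over Sham 1 (left) and the fitted log2 difference of TAC against sham with bars of 1 standard error (right). On the left, short transcripts reach 0.48 and the longest lie near 0, and on the right the spread is smaller.

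Other genes of the pathway were read from lists. Of the 38 nuclear-encoded genes listed by Nduf symbol for complex I, the entry point for NADH, 0 were called by edgeR. At an unadjusted p under 0.05, 19 of them (50.0%) passed, beside 23.9% for complexes II to V. The shares were 27.5% for all genes and 34.1% for those with a mean FPKM of at least 5. A difference above 0 was found for 37 (49.1% of all genes, 70.2% of those with a mean FPKM of at least 5). Their median was 0.20, beside 0.16 for complexes II to V. The 7 mitochondrially encoded subunits of complex I gave a median of 0.31 with 0 called. Among factors that assemble complex IV, 3 of 23 tested were higher in TAC and 0 lower, where 2.58% of all genes were called higher, with a list median of 0.17. The lists for assembly of complex II (4 genes, median 0.06), complex III (6 genes, 0.22) and complex V (6 genes, 0.11), for electron carriers and exchange across the inner membrane (14 genes, 0.15) and for expression of mitochondrial DNA (17 genes, 0.08) held 0 called genes.

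Cox19, a copper-handling protein needed to build complex IV, rose from 23.3 and 24.9 CPM in sham to 44.0 and 36.2 CPM in TAC, by 0.74 ± 0.11 (adjusted p = 0.0196, edgeR). Coa3, which acts in the synthesis and early assembly of the mt-Co1 protein, rose from 21.0 and 17.7 to 27.7 and 29.2 CPM (0.56 ± 0.11, adjusted p = 0.0394, edgeR). Cox14, which acts at the same step, rose from 38.7 and 40.2 to 54.4 and 49.8 CPM (0.40 ± 0.08, adjusted p = 0.0423, edgeR). The groups did not overlap in these genes. Scaled by total counts, only Cox19 passed.

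Of the markers of other heart cells, 6 of 37 were called lower in TAC and 0 higher, where 2.43% and 2.58% of all genes were. The 8 endothelial markers had a summed level of 485 and 392 CPM in the sham libraries, against 228 and 318 CPM in the TAC libraries, with 3 called lower and 8 of 8 below 0. Fibroblast markers (2 called lower) summed to 240 and 171 CPM in sham against 97.7 and 134 CPM in TAC. Mural cell markers (1 called lower) summed to 377 and 390 CPM against 161 and 276 CPM, and macrophage markers (0 called) to 120 and 62.0 CPM against 31.3 and 59.9 CPM. Red blood cell markers overlapped, with 84.9 and 73.7 CPM in sham and 49.9 and 125 CPM in TAC. No marker on these lists was at 0 in all libraries. The endothelial, fibroblast, mural and macrophage sums were lower in both TAC libraries and lowest in TAC 1, and their part in the values of the respiratory subunits was not tested.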

How the data were processed

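RNA sequencing was done on isolated cardiomyocytes, 2 sham and 2 TAC libraries. For each gene the authors deposited FPKM (fragments scaled by transcript length and library size) and an expected count, which is estimated and can be fractional. The submitters' processing notes name Bowtie2 2.2.8, StringTie 1.3.1 and the mm10 build, without the role of each tool. In the deposited FPKM, the length implied by count and library total differed by under 5% between libraries for 51 of the 52 subunits tested. Reads shared by near-identical genes may have been split by the counting.

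Groups came from the sample titles. Library totals ran from 24237777 to 32118323 expected counts, which were rounded, filtered with filterByExpr, scaled by TMM and tested in edgeR 4.0.16 (R 4.3.3; glmQLFit and glmQLFTest, TAC against sham, no block), with Benjamini-Hochberg adjustment over 12499 genes. CPM uses TMM-scaled totals. Standard errors are the log2 difference over the root of F. The common biological coefficient of variation was 10.5%. Replicates differed by more than sampling noise (chi-square per degree of freedom 9.19 in sham and 31.3 in TAC) and were kept apart. On simulated counts, drawn with the same spread for every gene, 82.5% of genes changed by 1 and 98% of those changed by 2 (log2) were recovered. Gene positions are from GENCODE, mm10.

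Ratios were compared by exact permutation. Alternatives were DESeq2 1.42.0, limma-voom (limma 3.58.1), other scalings, no filter, limma on log2(FPKM + 1) and log2(FPKM + 0.1), an adjusted p of 0.1, a replicate block and leaving out each library. The members and gene lists were chosen with earlier results of these data known. Genes named with values were the mitochondrially encoded subunits, the complex II subunits, Uqcrfs1, Cyc1, Uqcrc1, Uqcrc2, Atp5a1, Atp5b, the paired subunit forms, the 3 largest differences in each direction among nuclear-encoded subunits with a mean FPKM of at least 5 (only Cox7a1 lay below 0), and called genes of the pathway lists, up to 3 in each direction. Other subunits named were chosen after their values were seen.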

Additional observations from a re-analysis of the deposited data

How the results depend on the processing

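Of 434 single-gene comparisons, 372 kept direction and side of the threshold, 49 uncalled differences changed sign (14 under total counts and 14 under each FPKM setting) and 13 gained a call. The number of members called, 0, became 2 with DESeq2, 1 with limma-voom, 2 with no low-count filter (Atp5e and Cox6a2; 10.5% of all genes were called), 2 at an adjusted p under 0.1 (Cox6a2 and Uqcrq; 14.5%) and 0 to 6 on leaving out 1 library (2.34 to 10.3%), all of them higher in TAC. The nuclear-encoded median of 0.16 was −0.028 under total counts, 0.061 with totals without mitochondrial genes, −0.026 with FPKM at either pseudocount, and 0.11 to 0.22 on leaving out 1 library. The medians of complexes II, III, IV and V were −0.057, −0.029, −0.030 and −0.017 under total counts and 0.035, 0.061, 0.060 and 0.069 with totals without mitochondrial genes. With FPKM they were −0.055, −0.029, −0.030 and −0.025 at a pseudocount of 1 and −0.055, −0.029, −0.030 and −0.026 at 0.1. On leaving out 1 library they ran from 0.065 to 0.21, 0.10 to 0.21, 0.071 to 0.23 and 0.11 to 0.24, and the mitochondrially encoded median from 0.059 to 0.53. The ratio tests could pass no threshold in any setting. Pathway genes called, 3, became 1 under total counts, 1 with totals without mitochondrial genes, 10 with no filter, 0 with FPKM at either pseudocount, 15 at an adjusted p under 0.1 and 2 to 11 on leaving out 1 library, beside the shares of all genes given above. The cause of these shifts was not tested.

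The methods of the study describe the sequenced mice as pairs of sham and TAC. Neither they nor the labels say that a replicate number marks a pair, and same-numbered libraries did not deviate together (correlation −0.24 over genes). With a replicate block, 0 members, 2 of 115 pathway genes and 4.53% of all genes were called, and the nuclear-encoded median was 0.16. Crossing the numbers, an alternative chosen after seeing the data, gave 3 of 52 members, 19 of 115 pathway genes and 2131 of 12499 genes in all.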
